A study of Mus musculus with 6 samples.

Results

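Piezo1, Piezo2, Trpv4, Trpc6, Trpm7 and Pkd2, 6 genes for ion channels linked to mechanical force, were followed through chromatin profiles of primary mouse cardiac fibroblasts. Regions were taken as members when the deposited annotation gave one of these symbols, whatever their measured values. They numbered 73 of 170890 regions in the T set table of TGF-b over NC and 63 of 180118 in the T set table of siRNA over TGF-b. In the S set, 20 of 52723 and 19 of 52579 regions belonged to them. Joined over the tables of a set, there were 114 different T set regions and 28 different S set regions, from 6 of the 26742 genes named anywhere in the tables. Piezo2 held the most, with 56 T set and 11 S set regions. Piezo1 held 20 and 6, Trpv4 15 and 2, Trpc6 9 and 6, Trpm7 5 and 3, and Pkd2 9 and 0.

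The assay was CUT&Tag, in which an antibody bound to chromatin tethers a transposase that cuts and tags the DNA nearby. The 6 libraries formed a T set and an S set, each with 1 library labelled NC, 1 labelled TGF-b and 1 labelled TGF-b with an siRNA (SiTAZ in the T set, SiSRF in the S set). All came from mouse heart, with no strain, age, dose or time in the labels. The study profiled TAZ, a co-activator that reaches DNA through TEAD factors, and SRF, a factor that binds CArG boxes, but the labels name no antibody. In the study's text the siRNA of this experiment is one against Piezo2, a target the labels do not give, and chromatin profiles do not check a knockdown. With 1 library per treatment and set, no difference below could be set against replicate error and no test of a treatment was possible. Markers of 4 cell types did not check the cell type either, since regions within 3 kb of a start were listed in the T set table of TGF-b over NC for 6 of 8 fibroblast, 4 of 5 cardiomyocyte, 2 of 3 endothelial and 2 of 3 macrophage and leukocyte genes.

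Piezo channels are large trimers that open when the membrane is stretched and let calcium and other cations enter. Members of the TRP family take part in mechanical responses in other ways. TRPV4 opens on swelling, warmth and lipid messengers. TRPC6 is opened by diacylglycerol and has been tied to myofibroblast conversion. TRPM7 is a channel for magnesium and calcium fused to a kinase, and polycystin 2, the product of Pkd2, works with polycystin 1 at cilia and in the endoplasmic reticulum. In fibroblasts, calcium entry and a stiff matrix both feed into the SRF and TAZ pathways.

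Few regions lay at the start of a full-length transcript. Positions are given as in the deposited tables, whose contig names are those of GRCm39. A region of 79 bases at Trpm7 (chr2:126718161-126718240) spanned 90 to 11 bases before the start of ENSMUST00000103224 and was called in the NC library of the T set. A region at Piezo1 (chr8:123278153-123278316) spanned 248 to 85 bases before the start of ENSMUST00000067252 and was called with the siRNA in the T set. At Pkd2, the region chr5:104606795-104606947 lay 521 to 369 bases before the start of ENSMUST00000086831 and was called in the NC and siRNA libraries of the T set. The S set region nearest to a start was at Trpc6 (chr9:8544472-8544854), 329 to 711 bases after the start of ENSMUST00000050433, inside intron 1. Trpv4 had a T set region in intron 1, 689 to 768 bases after its start.

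These promoters are shown because regions lay in or beside them. Each run covers 250 bases before to 50 after the RefSeq start in GRCm38.p6, 5′ to 3′ on the gene's strand. Capitals mark a CArG box (the SRF motif) or the TEAD motif GGAATG, searched on both strands, the latter also as CATTCC.
Piezo1 promoter, chromosome 8, minus strand: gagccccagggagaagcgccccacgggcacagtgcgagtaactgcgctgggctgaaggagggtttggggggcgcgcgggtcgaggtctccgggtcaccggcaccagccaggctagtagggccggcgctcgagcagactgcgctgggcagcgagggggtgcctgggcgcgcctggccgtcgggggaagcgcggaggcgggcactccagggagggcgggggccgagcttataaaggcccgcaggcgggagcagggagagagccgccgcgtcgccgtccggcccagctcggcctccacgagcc
Trpm7 promoter, chromosome 2, minus strand: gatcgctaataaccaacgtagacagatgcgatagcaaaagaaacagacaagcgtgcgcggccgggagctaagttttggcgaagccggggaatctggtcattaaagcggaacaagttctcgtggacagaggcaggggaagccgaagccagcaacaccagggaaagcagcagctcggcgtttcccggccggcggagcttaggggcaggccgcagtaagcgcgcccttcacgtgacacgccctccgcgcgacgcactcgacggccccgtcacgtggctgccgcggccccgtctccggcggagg
Trpc6 promoter, chromosome 9, plus strand: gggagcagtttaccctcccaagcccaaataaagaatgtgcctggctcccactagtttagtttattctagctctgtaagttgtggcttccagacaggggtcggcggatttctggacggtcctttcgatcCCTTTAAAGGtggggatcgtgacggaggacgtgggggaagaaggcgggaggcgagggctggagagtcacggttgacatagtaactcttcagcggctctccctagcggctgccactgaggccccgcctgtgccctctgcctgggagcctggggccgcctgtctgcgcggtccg
Pkd2 promoter, chromosome 5, plus strand: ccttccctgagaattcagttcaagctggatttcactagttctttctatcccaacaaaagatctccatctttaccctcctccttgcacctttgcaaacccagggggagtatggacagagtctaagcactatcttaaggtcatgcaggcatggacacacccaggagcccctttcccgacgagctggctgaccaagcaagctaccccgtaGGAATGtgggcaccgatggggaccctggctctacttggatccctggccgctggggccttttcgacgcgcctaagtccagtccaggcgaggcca
The Trpc6 promoter held 1 CArG box, which began 122 bases before the start. Of all 32851 promoters in that table, 1.63% held a CArG box. The Pkd2 promoter held 1 GGAATG, which began 43 bases before the start, and 14.7% of all promoters held that motif on either strand. Neither match overlapped a match of the other motif, and neither lay inside a region of these tables by distance from the start. The Piezo1, Trpm7 and Trpv4 promoters held neither sequence, which says only that these letters are not in these windows. No Piezo2 promoter was searched, so the search covered 5 of the 6 genes. All 5 promoters lay above the median over all promoters, which was 52.7% G and C with 7 CpG pairs. Piezo1 had 75% and 34, Trpv4 73% and 30, Trpm7 63.7% and 35, Trpc6 60% and 17, and Pkd2 55.3% and 9. The RefSeq start fell on the first base of the named transcript in GRCm38 for Piezo1 and Trpc6, and 31 and 7 bases from it for Trpm7 and Pkd2.

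Reads were few. Called regions held a median of 7 to 13 reads per library over all genes, and member regions called in a library held a median of 7 to 16. A density was deposited for each region and library, which is the number of reads plus 1 per kb in a window of 2 kb, rescaled within the pair of libraries. A region counted as higher or lower when its density differed at least 2-fold between the libraries of a table. The interval of a ratio is the 95% Wilson interval of the later library's share of both libraries' reads, turned into a log2 ratio, and covers counting error only. Highest and lowest ratios of a gene are named among its regions with at least 20 reads over both libraries. Windows of neighbouring regions overlap, and 43 of the 114 T set regions lay within 2 kb of another of the same gene. The T set libraries had 127036 (NC), 53121 (TGF-b) and 134584 (siRNA) called regions, and those of the S set 27986, 25891 and 28738.

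In the T set, more member regions were lower than higher with TGF-b, as in the whole table. Of 73 regions, 12 passed the 2-fold limit upwards in TGF-b, or 16.4% (95% Wilson interval 9.66% to 26.6%, with regions counted as if independent), beside 17.3% of all regions. Downwards it was passed by 32, or 43.8% (33.0% to 55.2%), beside 42.1% of all regions. The median log2 ratio was -0.69 (95% rank interval -1.30 to -0.32), and over all regions it was -0.65. Centring on that value gave 19 higher, 22 lower and a median of -0.042 (-0.65 to 0.34). In the siRNA library, the balance was the other way. Of 63 regions, 26 were higher than in TGF-b, or 41.3% (30.0% to 53.6%), beside 49.7% of all regions. Lower were 9, or 14.3% (7.70% to 25.0%), beside 16.2%. The median was 0.45 (0.03 to 1.19), against 0.97 over all regions, and -0.52 once ratios were centred on that value. Centring also turned the balance, to 11 higher and 23 lower. With the deposited rescaling undone, 21 were higher and 16 lower, with a median of 0. On the deposited densities, the shares of member regions were close to those of the whole table in both directions. The counting interval of each held the whole-table share.

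In the S set, 4 of 20 regions were higher in TGF-b than in NC, or 20% (8.07% to 41.6%), beside 17.4% of all regions. Lower were 7, or 35% (18.1% to 56.7%), beside 26.7%. The median was -0.07 (-1.16 to 0.72), against -0.20 over all regions, and it turned to 0.12 with centring and to 0.50 with the deposited rescaling undone. The counts became 5 higher and 5 lower with centring, and 8 higher and 3 lower with the rescaling undone. With the siRNA, 4 of 19 regions were higher, or 21.1% (8.51% to 43.3%), beside 15.1% of all regions. Lower were 9, or 47.4% (27.3% to 68.3%), beside 27.8%. The median was -0.62 (-1.75 to 0.83), against -0.21. The share of lower regions with the siRNA was above that of the whole table, but its lower bound, 27.3%, was below 27.8%.

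**Figure D1:**
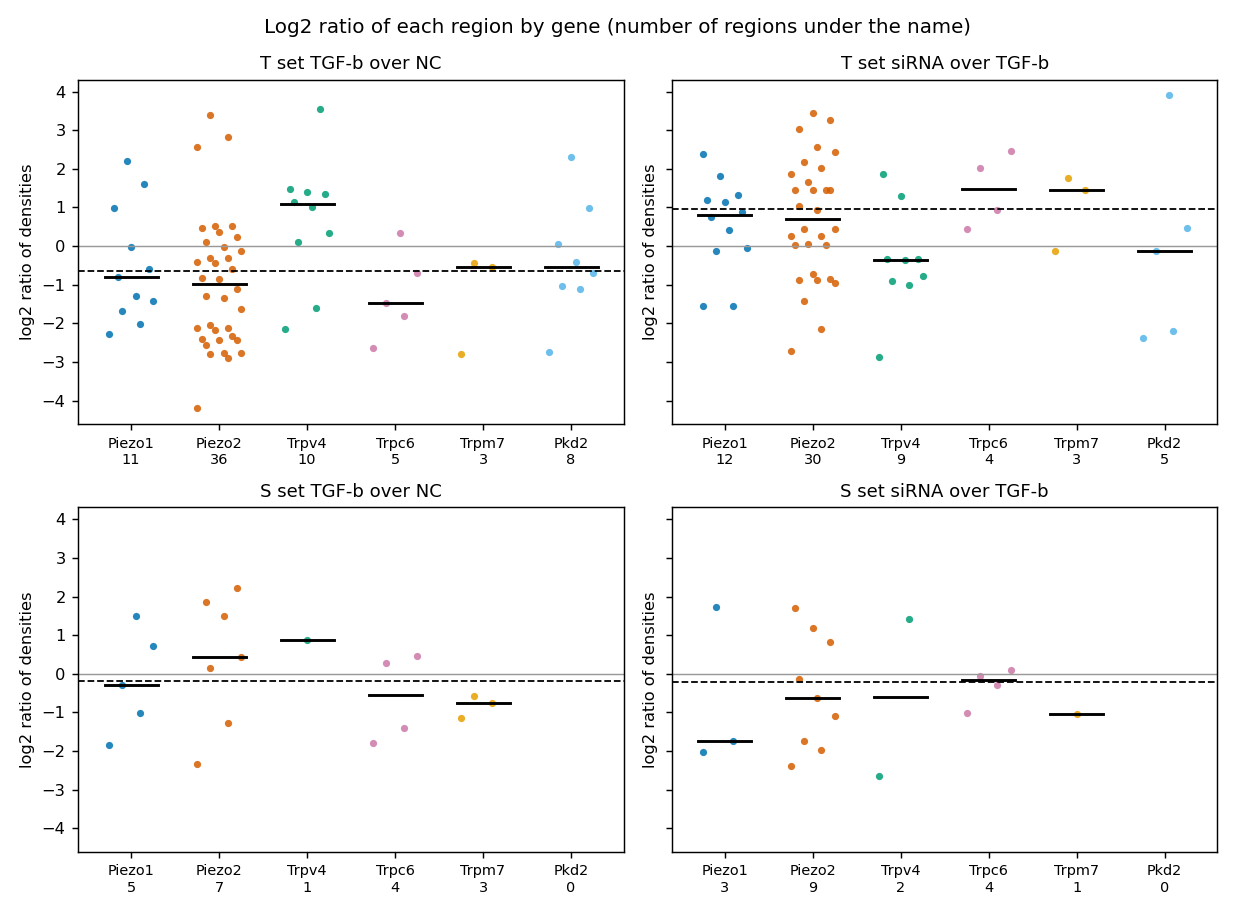
Each point is 1 region, placed by its log2 ratio of densities (vertical axis) and grouped by gene, in the 4 tables. Solid bars are medians per gene and the dashed line is the median of all regions of the table, above which Trpv4 stood furthest in TGF-b over NC of the T set (1.08 and -0.65).

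The library in which a region was called went with its direction. In the T set, 53 of 73 regions were called only in NC and their median log2 ratio of TGF-b over NC was -1.35, against -1.27 for all regions of that class. Another 17 were called only in TGF-b, with a median of 1.01 against 1.41. Only 3 were called in both, with a median of -0.41 against -0.00. In the siRNA table, 43 of 63 were called only in the siRNA library (median 1.31 against 1.62), 15 only in TGF-b (-1.41 against -1.42) and 5 in both (-0.12 against -0.00). In the S set, 9 of 20 were called only in NC (-1.28 against -1.02) and 11 only in TGF-b (0.72 against 0.70). With the siRNA, 10 of 19 were called only in TGF-b (-1.74 against -1.19), 8 only in the siRNA library (1.01 against 0.54) and 1 in both. Direction within a class called in 1 library is fixed in part by that choice and is given as a description.

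**Figure D2:**
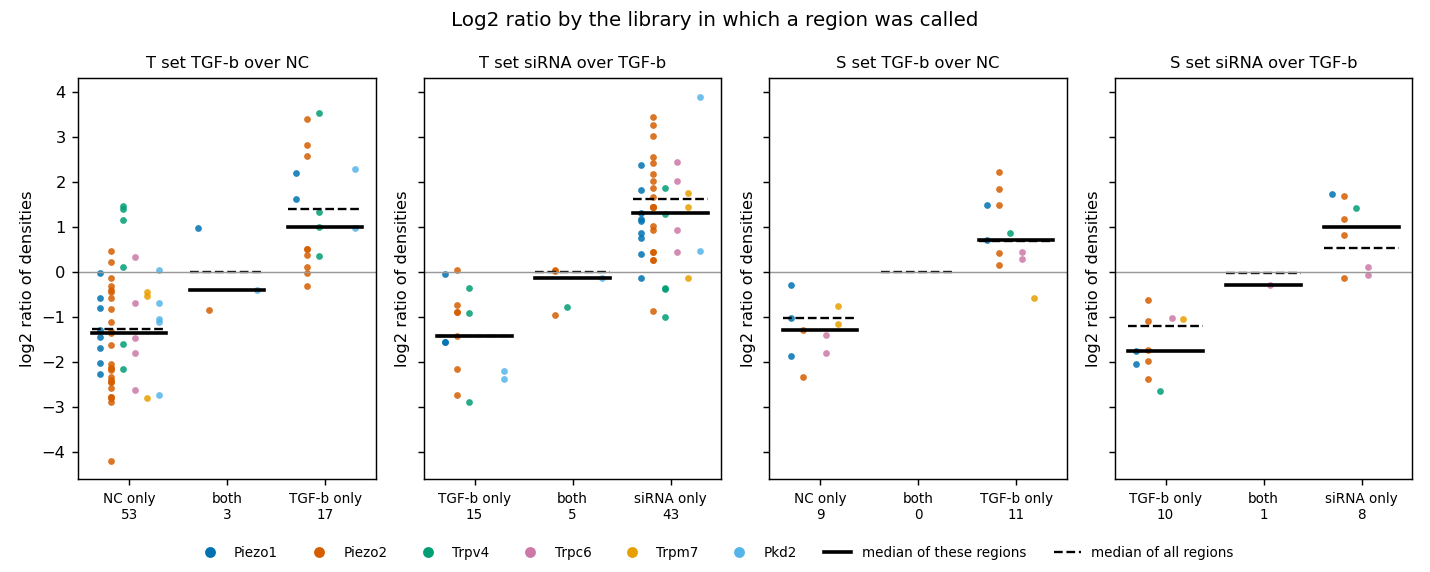
Points are member regions coloured by gene, placed by the library in which they were called (horizontal axis, with the number of regions) and by log2 ratio of densities (vertical axis). Solid bars are their medians and dashed bars those of all regions of that class, for example -1.35 and -1.27 for regions called only in NC in the T set.

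Piezo1, which encodes the stretch-activated channel of many non-neuronal cells, had its strongest T set region in intron 1 (chr8:123275564-123275984), 2084 to 2504 bases after the full-length start. Its reads were 24 (NC), 48 (TGF-b) and 11 (siRNA). The densities of NC and TGF-b were 12.5 and 24.5, for a log2 ratio of 0.97 (0.30 to 1.70). In the siRNA table those of TGF-b and siRNA were 20.8 and 7.07, for a log2 ratio of -1.56 (-2.58 to -0.72). TGF-b was thus the highest of the 3 libraries at this region, and both counting intervals lay away from 0. Both ratios share the 48 TGF-b reads, and in siRNA over TGF-b the region was called in TGF-b only, so the intervals are not independent. An S set region inside it (chr8:123275811-123275973, 162 bases shared) held 14 reads in NC and 10 in TGF-b, with densities of 9.13 and 4.52 and a log2 ratio of -1.02 (-2.19 to 0.09).

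The other Piezo1 regions of the T set went both ways. Of 11 regions in TGF-b over NC, 2 were higher, 5 lower and 4 within 2-fold, beside 17.3% higher and 42.1% lower over all regions. The Piezo1 median log2 ratio was -0.80, beside -0.65 over all regions. The highest ratio was at chr8:123227709-123227826, 50.3 kb into the gene and labelled as promoter of a short internal transcript, with 5 reads in NC and 16 in TGF-b (log2 ratio 1.62, 0.40 to 3.19). That region held 11 reads with the siRNA (-0.04, -1.16 to 1.01). The lowest ratio was in intron 1 (chr8:123260170-123260264), with 20 reads in NC and 3 in TGF-b (-2.27, -4.27 to -0.95). In siRNA over TGF-b, 5 of 12 regions were higher and 2 lower, beside 49.7% higher and 16.2% lower over all regions. The Piezo1 median was 0.81, below the 0.97 of all regions, and so turns negative with centring. In that table intron 1 held the highest ratio (chr8:123271413-123271541), with 4 reads in TGF-b and 18 with the siRNA (2.38, 1.13 to 4.12). The promoter region shown above held 22 reads in TGF-b and 21 with the siRNA, densities of 9.77 and 13.0 (0.41, -0.45 to 1.25), and so differed within its counting error. It was not listed in the NC table.

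Piezo1 had 6 regions in the S set. A region labelled 3' UTR (chr8:123214856-123215043), but 63.1 kb into the gene of 69.6 kb, held 5 (NC), 24 (TGF-b) and 6 (siRNA) reads. Its densities were 3.66 and 10.3 in the first table (1.49, 0.35 to 3.03) and 12.1 and 3.61 in the second (-1.75, -3.16 to -0.66). An intron 1 region (chr8:123251337-123251554) had the same shape, with 8, 21 and 4 reads, at 0.72 (-0.32 to 1.97) and then -2.04 (-3.77 to -0.81). Both were called only in TGF-b. The intron 27 region chr8:123217115-123217217, called in NC, had the highest mean density of the Piezo1 regions in its table and held 14 and 17 reads, densities of 9.10 and 7.42 (-0.30, -1.28 to 0.72). The lowest ratio with TGF-b was in intron 1 (chr8:123252850-123252972), with 16 and 6 reads (-1.85, -3.30 to -0.68). The sixth region, in intron 2 (chr8:123236621-123236732), held 2 reads in TGF-b and 8 with the siRNA (1.73, 0.09 to 4.20).

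Piezo2, the channel of touch and proprioception in sensory neurons, spans 375 kb, and its regions were spread along it. Of 56 T set regions, 53 lay in introns and 13 of these in intron 1. Introns held 34 of its 36 regions in the table of TGF-b over NC and 28 of 30 in that of siRNA over TGF-b, beside 74.6% and 75.2% of all regions with a gene. None lay within 2 kb of the start of the longest transcript in the tables, ENSMUST00000238156, and the 2 labelled as promoter lay at short internal transcripts. Per length, Piezo2 had 9.59 regions per 100 kb in the table of TGF-b over NC, where the median of genes longer than 50 kb with a region was 6.30 and 24.4% of them were denser. Piezo1, at 15.8 per 100 kb, was exceeded by 4.96% of them, whereas Trpc6 (3.66 per 100 kb) and Trpm7 (3.54) were exceeded by 76.2% and 77.6%. For the same contrast of the S set, Piezo2 had 1.86 regions per 100 kb, near the median of 1.82.

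With TGF-b, 3 of the 36 Piezo2 regions of the T set were higher than in NC, 18 were lower and 15 were within 2-fold. Over all regions, 17.3% were higher and 42.1% lower. The Piezo2 median log2 ratio was -0.97, and its rank interval (-2.13 to -0.32) held the -0.65 of all regions. The 3 higher regions had 0 reads in NC against 4, 5 and 8 with TGF-b, and with 0 reads set to 3 their folds were 1.49, 1.78 and 2.63. Their counting intervals began at log2 ratios of 0.31, 0.63 and 1.29. Closest to the full-length start was a region in intron 1, 3.18 kb inside (chr18:63516118-63516199). It held 20 reads in NC and 0 in TGF-b, densities of 9.84 and 0.534. With 0 reads set to 3 it was 4.61-fold lower, and its counting interval lay below a log2 ratio of -2.19. Further into intron 1, 12.7 kb from the start, 2 neighbouring regions shared a window with 28 reads in NC and 4 in TGF-b (-2.44, -4.16 to -1.26). Neither place was listed for Piezo2 in the siRNA table of the T set.

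The strongest Piezo2 signal of the T set lay in intron 3, 178 kb from the start (chr18:63341227-63341304), with 40 reads in NC and 22 in TGF-b, densities of 20.4 and 11.6 (-0.82, -1.59 to -0.10). The neighbouring region chr18:63340988-63341187 was called in both and held 39 (NC), 21 (TGF-b) and 5 (siRNA) reads. The log2 ratio was -0.84 (-1.63 to -0.12) with TGF-b and -1.41 (-2.97 to -0.25) with the siRNA, the lowest ratio of the gene in that table. Another deep region was in intron 4 (chr18:63294769-63294918), with 33, 26 and 19 reads, at -0.32 (-1.06 to 0.41) and 0.04 (-0.82 to 0.86). The highest ratio with TGF-b was at chr18:63499557-63499697 in intron 1, with 13 and 18 reads (0.51, -0.47 to 1.55). It held 13 reads with the siRNA. The region of the highest mean density within 3 kb of any annotated start (chr18:63165817-63165886) held 8 and 5 reads (-0.44, -2.07 to 1.01).

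In siRNA over TGF-b, 14 of 30 Piezo2 regions were higher, 3 lower and 13 within 2-fold, beside 49.7% higher and 16.2% lower over all regions. The Piezo2 median was 0.69 (0.04 to 1.45), below the 0.97 of all regions, which that interval held. Intron 18 held the highest ratio (chr18:63226185-63226249), with 2 reads in TGF-b and 20 with the siRNA (3.26, 1.83 to 5.72). A region 400 bases before an internal start (chr18:63162489-63162573) held 2 and 6 reads (1.67, -0.08 to 4.15). The higher regions lay between 22.5 and 371 kb from the full-length start, and the 3 lower ones at 39.1, 178 and 272 kb.

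**Figure D3:**
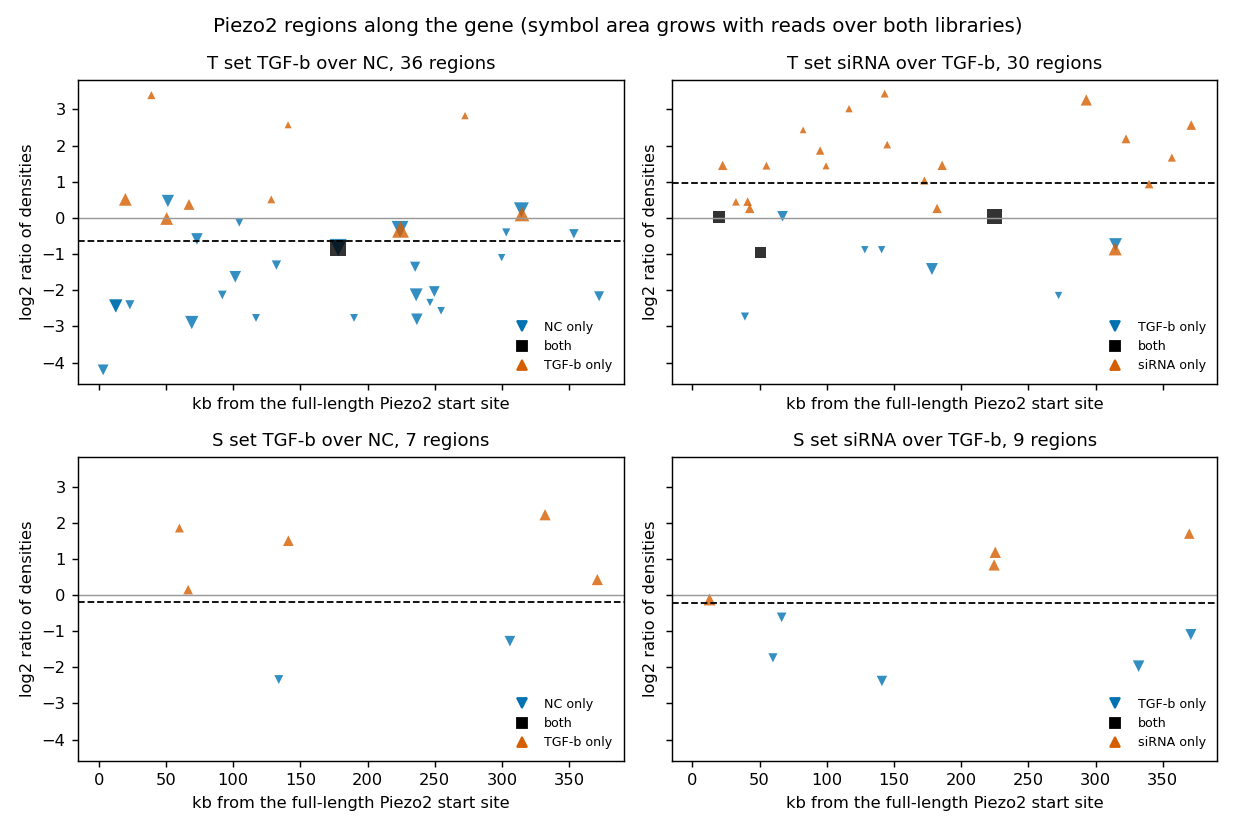
Piezo2 regions by distance in kb from the full-length start (horizontal axis) and log2 ratio of densities (vertical axis) in the 4 tables. Symbols give the library of the call, their area grows with reads, and the dashed line is the median of all regions. The region nearest the start, at 3.18 kb, has the lowest ratio as deposited (-4.20, with 0 reads in TGF-b). With 0 reads set to 3 it is -2.20, above the -2.89 of a region at 69.1 kb (31 and 3 reads).

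In the S set, Piezo2 had 7 regions in the NC table, 3 higher and 2 lower, beside 17.4% higher and 26.7% lower over all regions. The Piezo2 median was 0.43 (rank interval -2.34 to 2.22), beside -0.20 over all regions. All 5 regions called in TGF-b had densities above NC. The highest ratio was at chr18:63187190-63187336, labelled as promoter of the internal transcript ENSMUST00000236438 and 332 kb from the full-length start. Its reads were 2 (NC), 20 (TGF-b) and 4 (siRNA), with densities of 1.84 and 8.57 (2.22, 0.79 to 4.68) and then 10.1 and 2.59 (-1.97, -3.70 to -0.74). The region chr18:63378237-63378390 in intron 3 held 3, 16 and 2 reads (1.50, 0.15 to 3.51, then -2.38, -4.84 to -0.91). In intron 2, chr18:63459285-63459517 held 1, 10 and 2 reads (1.85, 0.12 to 5.31, then -1.74, -4.21 to -0.16). The last 2 were weaker, chr18:63148289-63148447 with 7, 15 and 6 reads (0.43, -0.73 to 1.78, then -1.09, -2.54 to 0.10) and chr18:63452765-63453077 with 5, 9 and 5 reads (0.15, -1.25 to 1.77, then -0.62, -2.24 to 0.78). These 5 regions were all called in TGF-b alone, where high reads are what the call selects.

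The remaining S set regions of Piezo2 were called in NC or with the siRNA. In NC, chr18:63213371-63213501 held 12 reads and 7 in TGF-b (-1.28, -2.66 to -0.05), and chr18:63385419-63385522 held 9 and 2 (-2.34, -4.81 to -0.73). With the siRNA, chr18:63149520-63149636 held 4 reads in TGF-b and 14 with the siRNA (1.70, 0.39 to 3.45), and chr18:63293903-63293980 held 7 and 16 (1.18, 0.04 to 2.53). The neighbouring chr18:63294753-63294857 held 8 and 14 (0.83, -0.32 to 2.12), and chr18:63506527-63506620 in intron 1 held 14 and 12 (-0.12, -1.23 to 0.95). Of the 9 regions in the siRNA table, 2 were higher and 4 lower, beside 15.1% higher and 27.8% lower over all regions. The Piezo2 median was -0.62 (rank interval -1.97 to 1.18), beside -0.21 over all regions.

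Trpv4, a calcium channel of fibroblasts and endothelium, had the highest median of the 6 genes in TGF-b over NC of the T set, 1.08, with a rank interval of -1.60 to 1.47. By summed densities its ratio was 0.50. The other 5 medians were below 0, but those of Trpm7 (-0.53) and Pkd2 (-0.55) lay above the -0.65 of all regions and so turn positive with centring. The Trpm7 value is the middle of 3 regions, and the ratio of its summed densities was -1.50. Of the 10 Trpv4 regions, 6 were higher and 2 lower, and 3 of the 6 higher ones lay outside the gene. The 6 higher regions held 0, 4, 4, 5, 6 and 9 reads in NC and 9, 11, 9, 13, 17 and 18 in TGF-b. The highest ratio was in intron 3 (chr5:114778051-114778125), with densities of 3.37 and 9.34 (1.47, 0.31 to 2.91). The lowest ratio was in intron 1 (chr5:114791695-114791788), with 23 and 4 reads, densities of 11.6 and 2.60 (-2.15, -3.88 to -0.95). The intron 1 region nearest the start held 10 reads in each library (0.11, -1.12 to 1.34). Of the 15 T set regions given to Trpv4, 6 lay outside the gene, and 4 of these in introns of other genes, so the symbol is the nearest-gene assignment of the tables.

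The highest mean density at Trpv4 was 9280 bases before its start (chr5:114805656-114805868), in a place labelled downstream of a gene, with 20 (NC), 25 (TGF-b) and 9 (siRNA) reads (0.35, -0.47 to 1.20, then -0.91, -2.08 to 0.07). It overlapped an S set region (chr5:114805693-114805811, 118 bases shared) that held 5 reads in TGF-b and 14 with the siRNA (1.43, 0.18 to 3.01). In siRNA over TGF-b of the T set, 2 of 9 regions were higher and 2 lower, with a median of -0.37, against 0.97 over all regions. The highest ratio was in intron 13 (chr5:114763772-114763836), with 8 and 15 reads (1.29, 0.17 to 2.57). The region within 1 kb of the start (chr5:114795594-114795658) held 10 and 3 (-1.01, -3.04 to 0.47). An internal promoter region (chr5:114768813-114768946) held 0, 9 and 0 reads over the 3 libraries.

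The second S set region of Trpv4, in an exon 22.4 kb from the full-length start (chr5:114774046-114774188), held 9 (NC), 26 (TGF-b) and 3 (siRNA) reads. Densities were 6.07 and 11.1 (0.87, -0.10 to 2.04) and then 13.0 and 2.07 (-2.65, -4.65 to -1.38). This was the lowest ratio of any member region in that table. It was called only in TGF-b.

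Trpc6, a diacylglycerol-gated calcium channel, had 5 T set regions in TGF-b over NC, all called in NC only. Of these, 3 were lower and none was higher, with a median of -1.47, beside -1.27 for all regions of that class. The strongest, in intron 1 (chr9:8609227-8609298), held 17 reads in NC and 5 in TGF-b, densities of 8.65 and 3.12 (-1.47, -3.04 to -0.27). The region nearest to a start (chr9:8550280-8550357) held 6 and 7 (0.34, -1.14 to 1.87). In siRNA over TGF-b the 4 regions were all called with the siRNA only, and 2 were higher. Their median was 1.49, beside 1.62 for all regions of that class. Direction at Trpc6 was thus fixed in part by the calls in both tables. The strongest, in intron 1 just beyond the S set region (chr9:8545366-8545434), held 3 reads in TGF-b and 15 with the siRNA (2.46, 1.09 to 4.47). No T set region of Trpc6 was listed in both tables.

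The S set signal at Trpc6 was strongest next to the start, in the region chr9:8544472-8544854 beside the promoter shown with the CArG box. The reads were 14 (NC), 29 (TGF-b) and 23 (siRNA). Densities were 9.07 and 12.4 (0.45, -0.40 to 1.41) and then 14.8 and 12.2 (-0.28, -1.07 to 0.49), so neither difference exceeded its counting error. It was the only S set member region called in both libraries of the siRNA table. The lowest ratio with TGF-b was also in intron 1 (chr9:8551056-8551144), with 20 and 8 reads (-1.79, -3.04 to -0.74), followed by chr9:8596498-8596618 with 15 and 8 (-1.40, -2.68 to -0.28). The region chr9:8592524-8592757 held 5, 10 and 4 reads (0.29, -1.07 to 1.90, then -1.02, -2.79 to 0.39). With the siRNA, chr9:8546981-8547062 held 8 reads in TGF-b and 7 with the siRNA (-0.06, -1.49 to 1.33), and chr9:8596701-8596797 held 8 and 8 (0.11, -1.25 to 1.47). All 6 S set regions of Trpc6 lay in intron 1.

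Trpm7, the channel with a kinase domain, had 1 deep region, in intron 24 (chr2:126657818-126657970). In the T set it held 43 (NC), 5 (TGF-b) and 3 (siRNA) reads. Densities were 21.4 and 3.08 in the first table (-2.80, -4.32 to -1.74), and 2.57 and 2.34 in the second (-0.14, -2.21 to 1.63). NC was high, and both other libraries were low. An S set region overlapping it by 91 bases (chr2:126657879-126657992) held 14 reads in NC and 9 in TGF-b (-1.16, -2.38 to -0.03). The promoter region of Trpm7 held 19 and 13 reads in the T set, densities of 9.76 and 7.17 (-0.44, -1.47 to 0.52). Another T set region, upstream in an intron of another gene, held 4 and 2 reads (-0.53, -3.02 to 1.43). The 2 Trpm7 regions in intron 26 of the S set held 8 and 7 reads (chr2:126652817-126652894; -0.75, -2.18 to 0.63) and 8, 8 and 3 reads (chr2:126653677-126653846; -0.58, -1.94 to 0.78, then -1.04, -3.08 to 0.52). In siRNA over TGF-b of the T set, the other 2 regions held 1 read each in TGF-b and 3 and 4 with the siRNA.

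Pkd2 had 8 T set regions in TGF-b over NC, 1 higher, 3 lower and 4 within 2-fold. Their median was -0.55, beside -0.65 over all regions. Its promoter region held 19 reads in each of the 3 libraries. The deposited densities were 9.81 and 10.2 (0.05, -0.85 to 0.96) and then 8.50 and 11.8 (0.47, -0.43 to 1.37), so that equal reads gave different ratios under the rescaling of each table. The strongest region with TGF-b was in intron 1 (chr5:104613235-104613416), with 25 (NC), 18 (TGF-b) and 2 (siRNA) reads (-0.41, -1.29 to 0.43, then -2.21, -4.67 to -0.76). Intron 7 held the highest ratio (chr5:104636791-104636923), with 3, 17 and 11 reads (2.30, 0.96 to 4.31, then -0.12, -1.23 to 0.91). Of the other regions, 1 that ended 1791 bases before the start held 14 reads in NC and 1 in TGF-b (-2.73, -6.21 to -1.06). In siRNA over TGF-b, 1 of 5 regions was higher and 2 were lower. The higher one, in an exon (chr5:104640986-104641060), held 0 reads in TGF-b and 10 with the siRNA. With 0 reads set to 3 it was 3.74-fold higher, and its counting interval began at a log2 ratio of 1.82. No S set region was assigned to Pkd2.

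Regions listed in both tables of a set allow the 3 libraries to be read side by side, as unscaled reads. The T set had 22 of them and the S set 11, and the recovered TGF-b reads were the same in both tables for all of them. Of these, 20 and 11 were called in TGF-b, so a high TGF-b value was part of their selection, and the tables of a set share the TGF-b library, whose reads enter both ratios. TGF-b held the most reads in 16 of 22 T set regions (72.7%, against 58.3% of all 58623 such regions) and in 10 of 11 S set regions (90.9%, against 82.6% of 26931). Regions at least 2-fold higher with TGF-b and then at least 2-fold lower with the siRNA numbered 4 (T set; 18.2%, against 27.3% of all) and 4 (S set; 36.4%, against 22.1%). The 4 in the S set were the Piezo1 region labelled 3' UTR and 3 Piezo2 regions. The latter held 2, 20 and 4, then 3, 16 and 2, and then 1, 10 and 2 reads. Those of the T set held 0 or 1 (NC), 5 to 9 (TGF-b) and 0 or 1 (siRNA) reads, at Piezo1, Piezo2 (2 regions) and Trpv4.

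**Figure D4:**
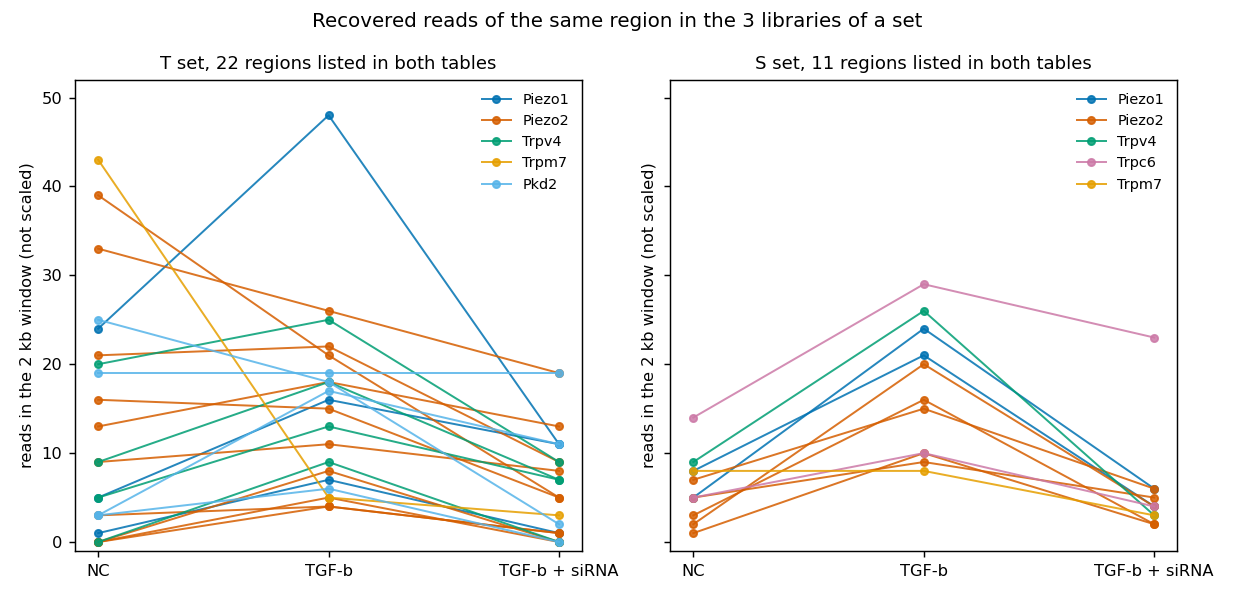
Reads in the 2 kb window (vertical axis) of each region listed in both tables, in the NC, TGF-b and TGF-b with siRNA libraries (horizontal axis), 1 line per region coloured by gene. The Piezo1 intron 1 region peaks at 48 reads in TGF-b of the T set, the Trpm7 intron 24 region starts at 43 reads in NC, and in the S set 10 of 11 regions are highest in TGF-b.

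Few regions were shared by the sets. By an overlap of at least 1 base, 5 of 114 T set regions (4.39%) met 5 of 28 S set regions (17.9%), where 4.70% of all T set regions and 17.3% of all S set regions did so. The 5 places were the Piezo1 intron 1 region, the Piezo2 intron 4 region (88 bases), the Piezo2 intron 1 region (7 bases), the Trpm7 intron 24 region and the region upstream of Trpv4. At Trpm7 both sets were lower in TGF-b than in NC, at -2.80 and -1.16. At Piezo1 the T set was at 0.97 and the S set at -1.02, and this difference between the sets was not tested.

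Regions of 18 other channels linked to force were counted in the same way, and were listed for all 18 in both T set tables and for 14 in both S set tables. With TGF-b, 16 of 129 T set regions were higher (12.4%, beside 17.3% of all regions) and 56 lower (43.4%, beside 42.1%), with a median of -0.73 beside -0.65. Of 37 S set regions, 3 were higher (8.11%, beside 17.4%) and 6 lower (16.2%, beside 26.7%), with a median of -0.15 beside -0.20. With the siRNA, 40 of 102 T set regions were higher (39.2%, beside 49.7%) and 20 lower (19.6%, beside 16.2%), with a median of 0.54 beside 0.97. Of 36 S set regions, 5 were higher (13.9%, beside 15.1%) and 9 lower (25%, beside 27.8%), with a median of -0.10 beside -0.21. Whether these shares differ from those of the 6 genes was not tested. The highest T set ratios with TGF-b among regions with at least 20 reads were at Asic1 (0 and 20 reads), Trpc1 (10 and 24) and Pkd1 (71 and 119), the partner of Pkd2. The lowest were at Panx1 (28 and 3), Asic2 (17 and 3) and Tmem150c (24 and 5). With the siRNA, the highest were at Trpm4 in 2 places (0 and 20, 3 and 22) and Asic1 (5 and 26), and the lowest at Trpm4 (26 and 0), Asic1 (20 and 0) and Kcnk10 (20 and 2). The same upstream Asic1 region thus held 0, 20 and 0 reads in the 3 T set libraries. In the S set, the highest ratios with TGF-b were at Tmem120a in 2 places (13 and 32, 13 and 30) and Asic2 (7 and 17), and the lowest at Tmem63c (12 and 10), Panx1 (12 and 10) and Kcnk2 (12 and 11). With the siRNA, the highest were at Panx1 (10 and 20) and Asic2 (7 and 13, 11 and 14), and the lowest at Asic2 (32 and 4), Kcnk2 (16 and 4) and Trpm4 (22 and 8).

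Of 20 genes for Piezo partners and calcium-dependent signalling, 16 and 18 had T set regions and 8 and 10 had S set regions. With TGF-b, 19 of 121 T set regions were higher (15.7%, beside 17.3% of all regions) and 49 lower (40.5%, beside 42.1%), with a median of -0.63 beside -0.65. Of 15 S set regions, 4 were higher (26.7%, beside 17.4%) and 6 lower (40%, beside 26.7%), with a median of 0.10 beside -0.20. With the siRNA, 46 of 109 T set regions were higher (42.2%, beside 49.7%) and 20 lower (18.3%, beside 16.2%), with a median of 0.61 beside 0.97. Of 22 S set regions, 4 were higher (18.2%, beside 15.1%) and 3 lower (13.6%, beside 27.8%), with a median of -0.04 beside -0.21. The highest T set ratios with TGF-b were at Cdh2 (6 and 24 reads), which encodes N-cadherin, Nfatc4 (6 and 17) and Calm3 (13 and 36), and the lowest at Camk2g in 2 places (22 and 0, 22 and 2) and Nfatc2 (24 and 2). With the siRNA, the highest were at Nfatc2 (3 and 32), Ppp3ca (4 and 32) and Camk2d (3 and 24), and the lowest at Capn2 (23 and 0), Nfatc2 (35 and 7) and Calm3 (36 and 8). The Calm3 promoter region thus held 13, 36 and 8 reads. In the S set, the highest ratios with TGF-b were at Nfatc2 (5 and 22), Nfatc3 (7 and 23) and Ppp3r1 (7 and 22), and the lowest at Nfatc2 (15 and 9) and Stoml3 (17 and 11). With the siRNA, the highest were at Stoml3 (13 and 18) and Nfatc2 (15 and 17), and the lowest at Nfatc2 (22 and 3), Nfatc3 (23 and 14) and Camk2d (29 and 20).

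Piezo2 was also compared with 1676 genes that had at least 10 regions in both T set tables and at least 1 in both S set tables, by the distance over the 4 median log2 ratios. The nearest were Gm1992, Gpr26 and Ppp1r12b, at 0.26, 0.28 and 0.32, where the median distance was 1.41. Gpr26, for example, had medians of -0.99, 0.61, 0.41 and -0.35, against -0.97, 0.69, 0.43 and -0.62 for Piezo2. This is a likeness of medians over few regions and libraries shared by all genes.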

How the data were processed

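CUT&Tag libraries from 6 samples of primary mouse cardiac fibroblasts were compared in 4 tables. Bowtie2 and GRCm39 are named for mapping in the methods of the study, and "Masc2" for peaks. The submitters' processing notes list mm10 and BWA 0.7.12. Contig names in the tables are those of GRCm39, so no genome sequence was read by position. The signal deposited by the authors is a read density per region, as reads plus 1 per kb, rescaled within each pair along a line in mean log2 density and not to library size. Deposited fold changes and p-values of the authors were not used.

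With the line undone, reads came out whole (tolerance 0.1) for 99.97% to 99.99% of regions and for all member regions. The recovery of reads was also tested on simulated data. Python 3.11.15, pandas 2.3.3 and statsmodels 0.14.6 were used. Ratios are the later library over the earlier one, compared only within a table. Members and gene lists (other mechanical channels, Piezo partners and calcium signalling, cell type markers) were chosen with earlier results of these data known. Named per member and table were the region with the highest mean density within 3 kb of a start (or else the nearest), that with the highest mean density, and the largest rise and fall with at least 20 reads over both libraries; all S set member regions; per list and table, up to 3 rises and 3 falls under the same limit; and the 3 genes most like Piezo2. Alternatives were a 4-fold threshold, centring, the line undone, reads of 3 or fewer set to 3, at least 10 reads, summed densities and 50% overlap. With 1 library per group, no test was run.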

Additional observations from a re-analysis of the deposited data

Results flagged for a closer look

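Among genes with at least 3 regions in each set and all members together, in 5 cases the median log2 ratio of member regions had opposite signs between the sets under the same contrast. For Piezo2 with TGF-b over NC, the T set median minus the S set median was -1.40 (36 and 7 regions, medians -0.97 and 0.43). With the siRNA over TGF-b, the difference was 1.07 for all member regions (0.45 and -0.62), 2.56 for Piezo1 (12 and 3 regions, 0.81 and -1.75), 1.31 for Piezo2 (30 and 9 regions, 0.69 and -0.62) and 1.65 for Trpc6 (4 and 4 regions, 1.49 and -0.17). The medians of all regions with the siRNA had opposite signs too, 0.97 (T set) and -0.21 (S set). Centring each table on all regions ends the opposite signs in the 4 siRNA cases given. The T set values of 0.45, 0.69 and 0.81 lie below 0.97 and turn negative, as in the S set, and the S set value of Trpc6, -0.17, lies above -0.21 and turns positive, as in the T set. Trpm7 with the siRNA, with 1 region in the S set, had 1.44 and -1.04, which keep opposite signs with centring. For TGF-b over NC, centring brings opposite signs for all member regions, at -0.042 (T set) and 0.12 (S set). It does so too for Trpm7, with 3 regions in each set, as -0.53 lies above -0.65 and -0.75 below -0.20. The Piezo2 case with TGF-b keeps opposite signs, since -0.97 lies below -0.65 and 0.43 above -0.20. The rank interval of that S set median, -2.34 to 2.22, holds both 0 and -0.97. Of the 36 T set regions 26 were called only in NC, and of the 7 S set regions 5 only in TGF-b, which fixes direction in part. None of these differences was tested, since each set had 1 library per treatment and its tables were normalized separately.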

How the results depend on the processing

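Of 60 recomputed counts and medians, 37 stayed within tolerance, 20 moved beyond it and 3 changed sign. The tolerance was a factor of 1.5 for a count and the 95% rank interval of the reported median for a median (with under 6 regions, 0.1 on the log2 scale), so values within it could still shift, as from 32 to 22 lower regions with TGF-b in the T set under centring. With a 4-fold threshold, 6 regions were higher and 20 lower in TGF-b over NC of the T set, 11 higher and 5 lower in siRNA over TGF-b, and in the S set 1 and 1, then 0 and 3. Centring on the median of all regions gave 19 higher and a median of -0.042 with TGF-b in the T set, 11 higher, 23 lower and a median of -0.52 in place of 0.45 with the siRNA, and a median of 0.12 in place of -0.07 with TGF-b in the S set. Undoing the authors' line gave 16 lower and a median of 0 with the siRNA in the T set, and 8 higher, 3 lower and a median of 0.50 with TGF-b in the S set. Reads of 3 or fewer set to 3 left 4 lower with the siRNA in the T set. At least 10 reads left 7 higher with TGF-b, and 14 higher and 4 lower with the siRNA, in the T set. By summed densities, no gene's ratio changed sign, and 8 of 22 moved beyond tolerance. An overlap of 50% left 4 of the 5 shared regions.

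At this depth, 31 of 73 and 29 of 63 T set member regions, and 4 of 20 and 5 of 19 S set ones, had a library with 3 or fewer reads. The direction of several medians depends on the scaling. No paired analysis was possible because each group had 1 library. Neighbouring regions share windows and are not independent.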
